A study of Mus musculus with 12 samples.

Results

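The CD300 genes encode a family of surface receptors of myeloid cells, each with a single immunoglobulin-like domain outside the cell. All genes named Cd300 in the array annotation were taken, which gave 8 genes on 10 probes among the 16403 genes tested: Cd300a, Cd300lb, Cd300c, Cd300ld, Cd300lh (now Cd300ld3), Cd300e, Cd300lf and Cd300lg. Another 2 genes of the family stand in the annotation under other names, AF251705 (now Cd300c2) and Gm11710 (now Cd300ld4), and are described beside the 8. All 8 genes passed the filter on dim probes. On all 12 arrays, 7 of the 10 probes exceeded background clearly (Agilent's flag "well above background").

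Macrophages sorted from normal pancreas were compared with macrophages sorted from pancreatic tumor, on 12 single-color arrays, 6 per group. The labels give C57/B6 females aged 4 to 5 months in both groups. Tumor implantation is what the treatment protocol describes, but wild-type, KPC and FLT3-CRE/LSL-YFP mice are what the design text lists. KPC mice develop pancreatic tumors through mutations engineered into the pancreas, and FLT3-CRE/LSL-YFP mice mark cells that derive from Flt3-expressing progenitors. No genotype is stated for any sample, so which mice gave which sample is not given in the sources used here, nor is the surface gate of the sort. In each group 1 sample name stands on 2 arrays (normal replicates 2 and 3, tumor replicates 4 and 6). Those arrays were averaged, which left 5 samples per group. Nothing says that the samples are separate animals, so errors and p-values reflect variation among these samples, some of which can be technical.

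The family holds both inhibitory and activating receptors. Cd300a and Cd300lf carry inhibitory tyrosine motifs in long cytoplasmic tails, which recruit phosphatases such as SHP-1 (Ptpn6). Most of the others have short tails and signal through the adaptors DAP12 (Tyrobp) or the Fc receptor gamma chain (Fcer1g). Several members bind lipids that become exposed on dying cells, such as phosphatidylserine, or lipids such as ceramide, and so tune how macrophages, mast cells and other myeloid cells respond to their surroundings. Cd300lg, also called nepmucin, differs from the rest in being known as a receptor of vascular endothelium.

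Probe sequences bear on how the values can be read, because 3 of the 10 probes end in or hold a simple repeat and 2 pairs of probes share most of their bases. The lines below give bases 31 to 60 of the 60-base probes of Cd300lg, Cd300a and 1 of the 3 probes of Cd300lf, with a repeat in capitals. They are followed by 30 bases from the middle of the run that the Cd300lh and Gm11710 probes share (49 bases in all) and of the run that the other 2 Cd300lf probes share (53 bases).
Cd300lg: aatcTTCCTTCCTTCCTTCCttccttcctt
Cd300a: gtgtgtatgtgtatatGTATGTATGTATgt
Cd300lf (A_55_P2004511): tttaaggaggaAGAGAGAGAGAGAGAGagt
Cd300lh and Gm11710: cctggacggagagaaacacttcccaggaga
Cd300lf (A_52_P422494 and A_55_P2081164): ttgattgtgtactttcagaattgtagaaga

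Cd300lf stood apart from its relatives. Its level was 9.96-fold higher in tumor macrophages, whereas 6 of the 8 members differed by less than 0.5 on the log2 scale. Cd300lh was lower in every tumor sample than in every normal one. The differences of Cd300a, Cd300lb, Cd300c, Cd300ld, Cd300e and Cd300lg lay between -0.42 and 0.37, with groups that overlapped. All levels are log2 signals relative to the 75th percentile of the array, and differences are tumor minus normal. In such bulk samples, more cells that carry a transcript and more transcript per cell cannot be told apart.

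The family was chosen by the tumor and normal signals of its genes in these same arrays, so their differences are a description, and no test is given for them. Of the 8 members, 1 (Cd300lf) was past an adjusted p of 0.05 in the limma fit over all genes, where 0.847% of genes were past it in either direction and 0.335% were past it as higher in tumor. The groups did not overlap for 2 members, Cd300lf and Cd300lh, against 3.41% of all genes. Differences were positive for 3 members and negative for 5, with a median of -0.17. The median of all genes was -0.0041 and their quartiles were -0.34 and 0.36. The difference of Cd300lf was the 25th from the top of the 16403. Between samples of a group the median SD of the members was 0.54 in normal and 0.29 in tumor, and that of all genes was 0.58 and 0.50.

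**Figure D1:**
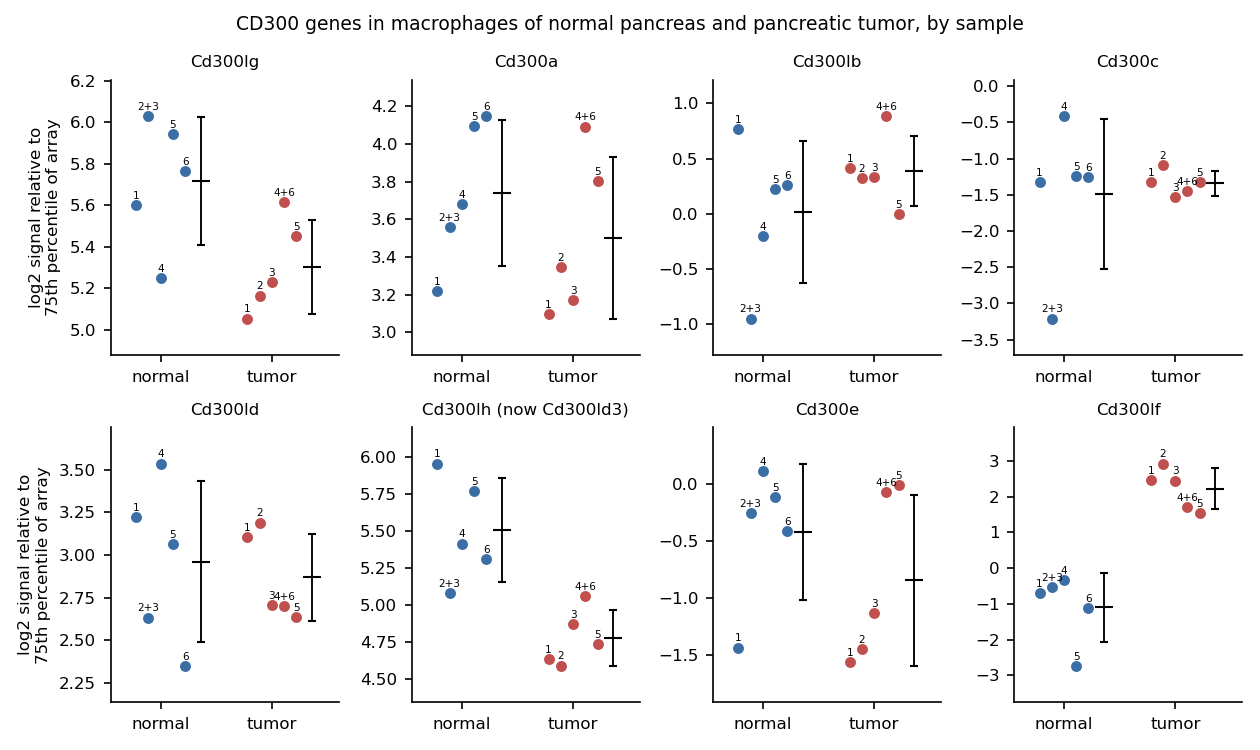
Log2 signal relative to the 75th percentile of the array (vertical axes, each panel with its own range) of the 8 CD300 genes in macrophages of normal pancreas (blue) and tumor (red). Each point is 1 sample with its replicate number, and lines give mean and SD of 5 samples; the groups stand fully apart for Cd300lf, higher in tumor, and for Cd300lh, lower in tumor.

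Cd300lf (also CLM-1) is an inhibitory receptor of myeloid cells that binds phosphatidylserine, ceramide and sphingomyelin. The probe used for the gene, A_55_P2081164, lies on chromosome 11 at 114977540 to 114977599 (mm9, minus strand). In normal samples 1, 2 with 3, 4, 5 and 6 it read -0.71, -0.54, -0.34, -2.74 and -1.12. In tumor samples 1, 2, 3, 4 with 6 and 5 it read 2.48, 2.93, 2.45, 1.72 and 1.55. All 5 tumor samples lay above all 5 normal ones, and normal sample 5 was the lowest by more than 1 log2 unit. The means were -1.09 ± 0.97 and 2.22 ± 0.57 (SD, n = 5 each), a difference of 3.32 ± 0.46 (SE). Within slides 1, 2 and 3 the difference was 3.41, 2.47 and 3.54. Slides 1 and 2 share normal sample 2 with 3, and slides 2 and 3 share tumor sample 4 with 6. The slides are therefore not separate repeats. Over all slides the difference was 2.90 without normal sample 5, the lowest value when each sample was left out in turn, and 3.50 without normal sample 4, the highest.

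The other 2 Cd300lf probes also read higher in all tumor samples, by different amounts. A_52_P422494 (114977533 to 114977592) shares 53 bases with the probe above and lies 7 bases beside it. It read -2.17, -4.19, -2.16, -5.44 and -3.39 in the normal samples and 1.32, 1.66, 0.43, -0.022 and 0.25 in the tumor samples. Its difference was 4.20, or 18.4-fold, but it was well above background on only 3 of 6 normal arrays, which leaves the size uncertain. A_55_P2004511 (114977796 to 114977855), the probe with the AG repeat, read -2.34, -2.06, -2.67, -1.85 and -2.43 in normal and 0.020, 0.70, -1.19, -0.51 and 0.033 in tumor. Its difference was 2.08, or 4.23-fold, with 4 of 6 normal arrays well above background. All 3 probes thus separate the groups, and the fold of the gene lies anywhere from 4.23 to 18.4 by the probe read.

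Within groups the 3 probes did not move alike. Deviations from the group means correlated at 0.82 over the 10 samples between the probes that share 53 bases. They correlated at -0.049 and -0.13 between each of these and the AG-repeat probe. Normal sample 5, the lowest sample on both overlapping probes, was the highest normal sample on the AG-repeat probe. The same repeat stands in 7 other probes of the array, all 7 well above background on all 12 arrays, against 33.9% of all probes. Their differences between tumor and normal lay between -0.21 and 0.18.

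**Figure D2:**
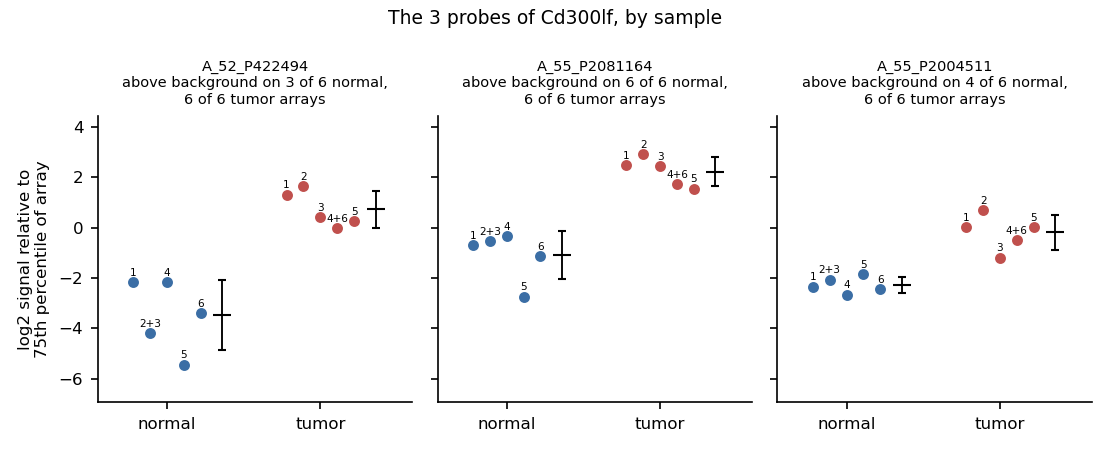
Log2 signal relative to the 75th percentile of the array (shared vertical axis) of the 3 probes of Cd300lf in each normal (blue) and tumor (red) sample, with mean and SD of 5 samples. All 3 separate the groups, by 4.20, 3.32 and 2.08 from left to right, and normal sample 5 is lowest on the first and second but highest of the normal samples on the third.

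Cd300a (also CLM-8), the other inhibitory receptor, binds phosphatidylserine and phosphatidylethanolamine. Its probe (114765539 to 114765598 on chromosome 11, mm9, plus strand) read 3.22, 3.56, 3.68, 4.09 and 4.15 in normal and 3.09, 3.34, 3.17, 4.09 and 3.80 in tumor. The groups overlapped, with 2 tumor samples below all normal ones. The difference was -0.24 ± 0.28, smaller than its error, beside 3.32 ± 0.46 for Cd300lf.

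The Cd300a values need care, since the probe ends in a TATG-type repeat. Of 4 other probes with the same 12 repeat bases, 3 (Dnajb12, Olfr658 and Trim5) were well above background on no array. The fourth, of Ccdc169, was above it on all 12 and followed the Cd300a probe closely, with r of 0.95 between deviations from group means over 10 samples and a difference of 0.015. Ccdc169 is known from germ cells.

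The adaptor-coupled members follow. Cd300lb (also CLM-7), which couples to DAP12 and binds phosphatidylserine and the epithelial protein TIM-1, read 0.77, -0.95, -0.20, 0.22 and 0.26 in normal. It read 0.41, 0.32, 0.33, 0.88 and -0.0013 in tumor. Normal samples 2 with 3 and 4 lay below all tumor samples, but the others mixed, and the difference was 0.37 ± 0.32. Its probe lies at 114784811 to 114784870 (minus strand).

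Cd300c (also CLM-6) is an activating receptor that couples to the Fc receptor gamma chain. It read -1.33, -3.21, -0.42, -1.25 and -1.25 in normal and -1.33, -1.09, -1.54, -1.44 and -1.32 in tumor. The tumor samples lay within 0.44 of each other, whereas the normal ones spanned 2.79. The low normal sample is the pair of arrays 2 and 3, on which the probe (114821230 to 114821731) was not well above background. The difference was 0.15 ± 0.43 with that sample and -0.28 without it.

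AF251705 (now Cd300c2), another receptor of the Fc receptor gamma chain, showed the same low sample. It read 0.46, -1.32, 1.20, -0.31 and 0.29 in normal and 0.94, 0.86, 0.66, 0.45 and 1.01 in tumor. Tumor samples again lay close together, within 0.56, and normal samples spanned 2.52. The difference was 0.72 ± 0.41, and the groups overlapped. Its probe lies at 114858084 to 114858143.

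The low values of normal samples 2 with 3 went with dim arrays. These 2 arrays had the lowest 75th percentiles of signal, 398 and 430.2, where the 12 arrays reached up to 1547. Deviations from group means correlated with the log2 of that percentile at 0.74 for Cd300c, 0.64 for AF251705 and 0.61 for Cd300lb over 10 samples. For Cd300lf the value was -0.29. Without that normal sample the difference was 0.13 for Cd300lb, -0.28 for Cd300c and 0.37 for AF251705. It was also the normal sample with the highest signal of Cela1 (9.04), one of the acinar cell markers read below. The parts of array brightness and of the cells in the sample were not tested further.

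Cd300ld (also CLM-5), an activating receptor of myeloid cells that couples to the Fc receptor gamma chain, had the smallest difference of the family. It read 3.22, 2.63, 3.54, 3.06 and 2.35 in normal and 3.10, 3.19, 2.71, 2.70 and 2.64 in tumor. All tumor samples lay inside the normal range. The difference was -0.092 ± 0.27, and its sign turned within slide 1 (0.19), without normal sample 4 (0.051) and with normexp background correction (0.13). Its probe lies at 114843796 to 114843855.

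Cd300lh (now Cd300ld3) was the member with the clearest lower level in tumor. It read 5.95, 5.08, 5.41, 5.77 and 5.31 in normal and 4.64, 4.59, 4.87, 5.06 and 4.74 in tumor. Every tumor sample was below every normal one, though tumor sample 4 with 6 (5.06) came close to normal sample 2 with 3 (5.08). The means were 5.51 ± 0.35 and 4.78 ± 0.19, a difference of -0.73 ± 0.23, or 1.66-fold lower, not past the threshold. Within slides 1, 2 and 3 it was -0.93, -0.21 and -0.69. Its probe lies at 114903445 to 114903504.

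Gm11710 (now Cd300ld4) gave nearly the same picture as Cd300lh, and the 2 probes share a run of 49 of 60 bases, so their signals cannot be taken as separate. Gm11710 read 5.64, 5.03, 5.29, 5.56 and 5.21 in normal and 4.65, 4.64, 4.70, 4.90 and 4.54 in tumor, again without overlap. Its difference was -0.66 ± 0.20, or 1.58-fold lower. The probe lies at 114882031 to 114882090. Which of the related transcripts gave the signal of either probe was not tested.

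Cd300e (also CLM-2), known in humans as an activating receptor of monocytes, differed more within the groups than between them. It read -1.44, -0.26, 0.11, -0.12 and -0.42 in normal and -1.57, -1.45, -1.14, -0.075 and -0.012 in tumor. Tumor samples fell into low values (samples 1, 2 and 3) and values inside the normal range (4 with 6, and 5), and normal sample 1 was as low as the former. The difference was -0.42 ± 0.41 and turned to 0.36 within slide 3. Its probe lies at 114913395 to 114913454.

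Cd300lg, the endothelial member, read 5.60, 6.03, 5.25, 5.94 and 5.76 in normal and 5.05, 5.17, 5.23, 5.61 and 5.45 in tumor. Tumor samples 1, 2 and 3 lay below all normal samples, and the other 2 overlapped. The difference was -0.41 ± 0.22. The probe lies at 101916085 to 101916144 (plus strand), 12849 kb from Cd300a and outside the cluster of the other 7 members.

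Endothelial markers were read in the same samples. The 12 of 13 endothelial markers that were tested were summed as a share of the signal of all genes tested. That share was 0.00859% to 0.0205% in normal and 0.00752% to 0.0114% in tumor samples. Of these 12 markers 0 were past the limma threshold. At an unadjusted p under 0.05 were 3 of them, against 2121 of all 16403 genes. Of the 12 differences 9 were negative and 3 positive, and their median was -0.55. Kdr, Tek, Plvap, Vwf, Eng, Egfl7 and Gpihbp1 were above background on all 12 arrays, and the cadherin Cdh5, which was not tested, on no tumor array. The brightest, Egfl7, a secreted endothelial factor, and Gpihbp1, which anchors lipoprotein lipase in capillaries, differed by -1.58 ± 0.65 (limma adjusted p = 0.34) and -0.029 ± 0.32 (0.98). The part of endothelial cells in the difference of Cd300lg was not tested. The Cd300lg probe ends in a TTCC repeat that 2 other probes share, both well above background on all 12 arrays. One of them, of Igsf9b, gave r of 0.86 with Cd300lg over deviations from group means and a difference of -0.54. The other, of Ppp1r14c, gave 0.51 and -0.18. Whether the Cd300lg signal came from its transcript was not tested.

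**Figure D3:**
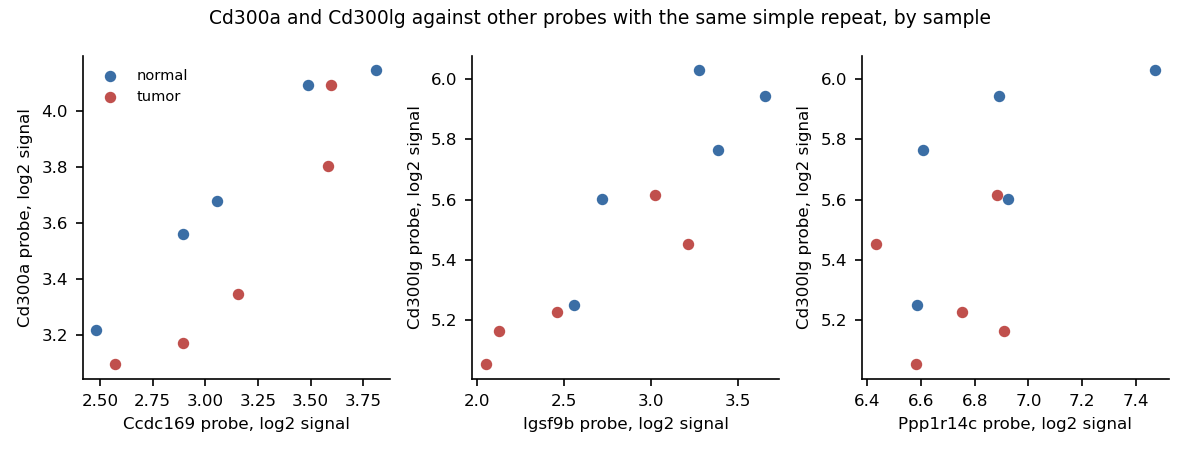
Log2 signal relative to the 75th percentile of the array of Cd300a against Ccdc169 (left) and of Cd300lg against Igsf9b and Ppp1r14c (middle and right), probes that share a simple repeat, with 1 point per normal (blue) or tumor (red) sample. The points rise together in the left and middle panels (r of 0.95 and 0.86 over deviations from group means) and less clearly in the right one (0.51).

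Arrays that share a sample name gave close values for the family. Over the 10 genes the 2 arrays differed by a median of 0.14 (0.014 to 0.38) for normal 2 and 3 and by 0.22 (0.011 to 0.67) for tumor 4 and 6. The largest gap, 0.67, was that of Cd300a. For Cd300lf the gaps were 0.34 and 0.11, small beside its difference of 3.32.

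The members did not vary as 1 block from sample to sample. Over the 45 pairs of the 10 genes, the correlation of deviations from group means had a median of 0.081 and 19 pairs were below 0. The highest were 0.95 for Gm11710 with Cd300lh, whose probes share bases, and 0.92 for Cd300c with AF251705, whose probes are not among those that share most of their bases. Cd300lb followed with Gm11710 (0.88) and Cd300lh (0.81). Cd300lf had no pair above 0.29, and its lowest was -0.67 with Cd300a. The lowest of all was -0.80 between Cd300lg and AF251705. These values share arrays and array brightness and are a description.

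Top correlations out of 16403 over 10 samples are high by selection alone, so the genes below are a description. Among all 16403 genes, those whose deviations were most like a member's also differed by member. For Cd300lf they were Aprt (adenine salvage), Gabpb2 (a subunit of an ETS-type transcription factor) and Lmna (lamin A/C), at 0.95, 0.94 and 0.94 over 10 samples. For Cd300c they included Ccr2, the chemokine receptor of blood monocytes, at 0.96, beside Susd3 (0.97) and Rap2a (0.96). Normal sample 2 with 3, the low one for Cd300c, was also low for Ccr2, at -0.91 beside 0.79 to 1.57 in the other normal samples. For Cd300lb the nearest genes were Ptprj, a receptor tyrosine phosphatase, at 0.95, Crat (0.95) and Tcf20 (0.94). For AF251705 the nearest were Rtf1, Trpv2 and Slc30a5 (0.98, 0.98 and 0.97). Adam15, a metalloprotease, came first both for Cd300lh (0.95) and for Gm11710 (0.93). For Cd300a the nearest were Ivl, a protein of the skin barrier, at 0.99, Rad1 (0.98) and Sstr5 (0.97). For Cd300e they were Krt71, a hair keratin, at 0.98, Myo5c (0.97) and Apoa5 (0.96). Cd300lg was nearest to Mzb1 (0.95), Apold1 (0.95) and Duox1 (0.95), and Cd300ld to Dus1l (0.92), Crk (0.91) and Fbll1 (0.90).

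The probes of the 7 clustered members span 212 kb of chromosome 11, and the difference of Cd300lf was not shared along it. Of 15 other named genes with probes in the cluster or within 200 kb of it, 13 were tested and 0 passed limma's adjusted p of 0.05, where 0.847% of all genes did. At an unadjusted p under 0.05, 4 of the 13 passed, against 2121 of all 16403 genes. The median difference of these 13 genes was 0.051, from -0.88 for Fads6 to 0.67 for Btbd17. Rab37, the nearest gene beyond Cd300lf and a small GTPase of secretory granules, differed by 0.067 ± 0.48. Transcript ENSMUST00000106578 has its probe inside the cluster between AF251705 and Gm11710 and shares a run of 22 bases with the Cd300lh probe. It differed by -0.69 ± 0.22 (limma adjusted p = 0.22), close to the values of Cd300lh and Gm11710.

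**Figure D4:**
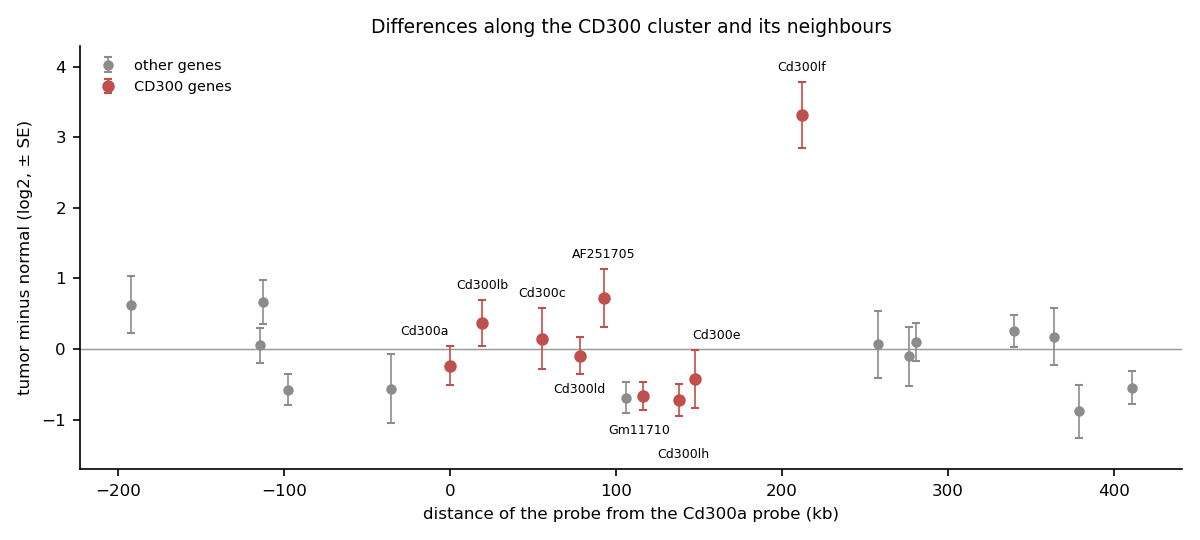
Difference of tumor minus normal (log2, with SE) for CD300 genes (red) and other genes (grey) against the distance of the probe from that of Cd300a (kb, mm9). Cd300lf at 3.32 stands above all others, which lie between -0.88 and 0.72.

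Promoter sequences show which members share start regions. RefSeq windows (GRCm38.p6, 250 bases before to 50 after the start) were at hand for 10 family genes of the cluster, including Cd300ld5. The windows of Cd300ld, Cd300ld3, Cd300ld4 and Cd300ld5 were 87.1% to 100% identical over their 6 pairs, and the other 39 pairs were 48.9% to 63.7% identical. The motif GAGGAAGT, a binding sequence of PU.1 (Spi1), the ETS factor that defines myeloid cells, stood in 5 of the 10 windows, with both strands searched. Of all 32851 windows, 3.20% held it. The stretches below show it in capitals, on the minus strand of chromosome 11, to show how alike the Cd300ld-type genes are and how Cd300lf differs around the same letters.
Cd300ld, chr11:114990006-114990045: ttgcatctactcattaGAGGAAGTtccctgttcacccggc
Cd300ld3, chr11:115048494-115048533: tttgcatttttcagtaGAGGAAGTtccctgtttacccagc
Cd300ld4, chr11:115027097-115027136: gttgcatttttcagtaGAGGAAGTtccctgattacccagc
Cd300lf, chr11:115133969-115134008: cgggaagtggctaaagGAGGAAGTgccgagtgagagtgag

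The motif began 143 bases before the start of Cd300ld, 187 before those of Cd300ld3, Cd300ld4 and Cd300ld5, and at the start site of Cd300lf. The Cd300ld-type genes share promoter sequence, so their 4 matches are not separate ones. The AP-1 motif TGANTCA was in 0 of the 10 windows (7.81% of all windows), and the C/EBP-type motif TTGCNNAA in that of Cd300a alone (10.8% of all). No match of one motif overlapped a match of another in these windows. Of the genes with GAGGAAGT, Cd300lf was higher in tumor, Cd300lh and Gm11710, whose probes share bases, were lower and Cd300ld differed by -0.092. Whether the motif bears on these levels was not tested.

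Of the adaptors through which the short-tailed members signal, all 3 were tested and 0 passed the limma threshold (0 at an unadjusted p under 0.05). Tyrobp (DAP12) differed by 0.13 ± 0.21, Fcer1g by -0.0032 ± 0.19 and Hcst (DAP10) by -0.033 ± 0.25. The median of the list, -0.0032, changed sign under 15 of 24 alternatives, as a value this close to 0 would.

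Of the 14 phosphatases, kinases and effectors below the receptors, all were tested and 1 was past the threshold, Fgr. Ptpn6, the phosphatase SHP-1 that inhibitory CD300 tails recruit, differed by 0.16 ± 0.28. Ptpn11 (SHP-2) differed by 0.018 ± 0.23 and Inpp5d (SHIP-1) by 0.12 ± 0.20. Fgr, a Src-family kinase of myeloid cells, read -1.62, -2.69, -2.04, -1.83 and -0.99 in normal and -0.14, 0.24, -0.33, -0.74 and 0.56 in tumor. The groups did not overlap, and Fgr rose by 1.75 ± 0.35 (limma adjusted p = 0.0498). Only 4 of 6 normal arrays measured Fgr well above background, so the size is uncertain, and with normexp background correction it was 1.03. The call was marginal, since of the 10 fits that left out a sample it was kept in 2, those without normal sample 6 and without tumor sample 4 with 6 (adjusted p 0.0214 to 0.143 over the 10). The next by p were Plcg2, which makes second messengers below activating receptors, at 0.82 ± 0.33 (limma adjusted p = 0.33), and Pik3cd at 0.44 ± 0.24 (0.46). The median of the list was 0.30, with 12 differences positive, beside the median of -0.0041 over all genes.

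Of the receptors known to partner CD300 members or to be bound by them, the 6 with differences given here were tested and 0 passed the threshold. Il4ra, the interleukin receptor chain with which Cd300lf associates, read 4.63, 4.93, 4.51, 4.20 and 4.45 in normal and 5.34, 5.85, 5.11, 5.13 and 5.19 in tumor. The groups did not overlap, but the difference of 0.78 ± 0.23 was not past the threshold (limma adjusted p = 0.18). Csf2rb, the shared beta chain of the GM-CSF receptor and its kin, differed by 2.01 ± 0.41 without overlap and just missed it (0.0544). Its neighbour Csf2rb2 differed by 1.27 ± 0.32 (0.12). Cd14 differed by 0.50 ± 0.37, Ly96 by -0.16 ± 0.28 and Havcr1, which encodes TIM-1, by -1.08 ± 0.65. Tlr4 was not well above background on any array and was not tested.

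Other receptors and bridges for phosphatidylserine, the lipid that Cd300a, Cd300lb and Cd300lf bind, had 0 of 12 past the limma threshold. Their median was -0.25, and 4 of the 12 had an unadjusted p under 0.05, against 2121 of all 16403 genes. Timd4 (TIM-4), a receptor of resident macrophages, had the largest difference, -3.75 ± 0.85 (limma adjusted p = 0.082). Only 4 of 6 normal and 1 of 6 tumor arrays measured it above background, so the size is uncertain. Cd36, a scavenger receptor, differed by -1.95 ± 0.63 (0.22) and Stab1 (stabilin-1) by -0.88 ± 0.33 (0.30). Mertk and Axl, the receptor kinases of apoptotic cell uptake, differed by 0.12 ± 0.29 and 0.22 ± 0.26.

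**Figure D5:**
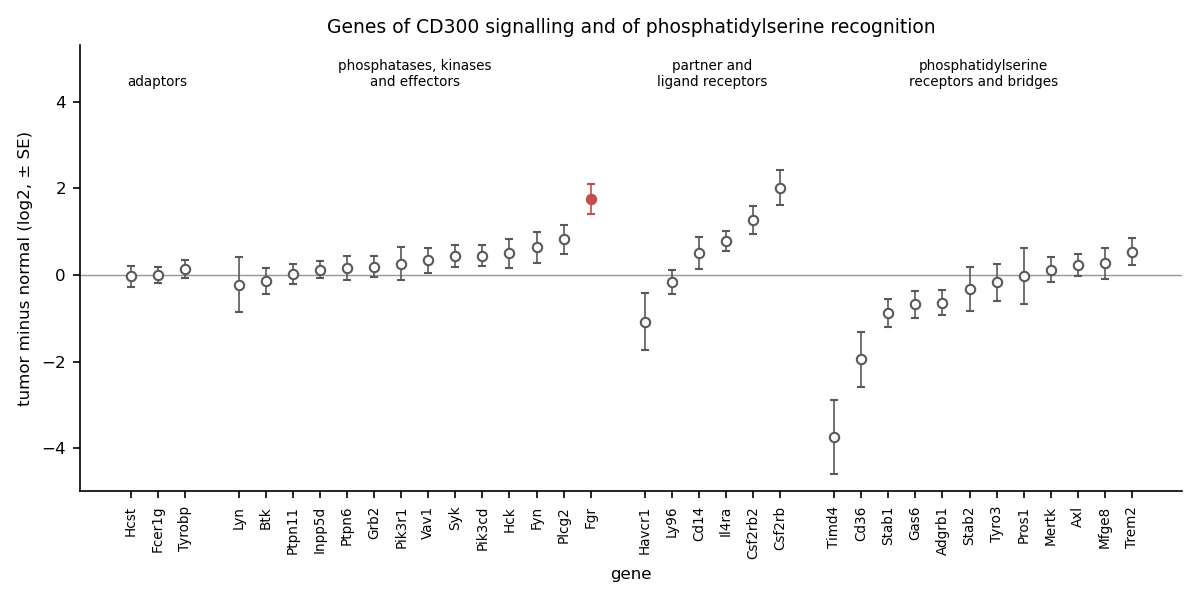
Difference of tumor minus normal (log2, with SE) for genes of the 4 lists around CD300 receptors that were above background on at least 1 array of both groups, sorted within each list, with genes past a limma adjusted p of 0.05 filled. Fgr at 1.75 is the filled point, and Csf2rb at 2.01 just missed the threshold.

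Markers of the labelled cell type and of others that a sort could hold were read in the same arrays. All 18 macrophage markers were tested and 0 passed the limma threshold. At an unadjusted p under 0.05 were 3 of the 18, against 2121 of all 16403 genes. The share of these markers in the signal of all genes tested was 0.662% to 0.931% in normal and 0.733% to 0.878% in tumor. Of the 18 differences 8 were positive and 10 negative, with a median of -0.069 and a range of -1.77 to 0.58. The brightest, Itgam and C1qb, differed by -0.46 ± 0.34 and -0.13 ± 0.25. Cd300lf is also known from monocytes, neutrophils, mast cells and dendritic cells, so their markers are given beside it.

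Among the monocyte markers past the threshold, all higher, were F10 (coagulation factor X) by 2.69 ± 0.30 (limma adjusted p = 0.0043) and Hp (haptoglobin) by 3.20 ± 0.43 (0.0077). The brightest of the list, Ms4a4c and S100a4, differed by -0.29 ± 0.31 and -0.039 ± 0.26. The summed share was 0.326% to 0.551% in normal and 0.425% to 0.529% in tumor and overlapped. That sum is weighted to Ms4a4c, at a mean of 8.80 in normal and 8.51 in tumor, with S100a4 next at 5.84 and 5.80. Gene by gene, 12 of 13 monocyte markers were tested, with 8 differences positive and 4 negative and a median of 0.75. At an unadjusted p under 0.05 were 6 of the 12, against 2121 of all 16403 genes. Of 14 neutrophil markers 12 were tested and 1 was past the threshold, Retnlg, higher by 4.34 ± 0.78 (0.034) with 2 of 6 normal arrays well above background. The neutrophil share was 0.0151% to 0.0229% in normal and 0.0209% to 0.0301% in tumor and overlapped, and Elane was not well above background on any array. The brightest neutrophil marker, Csf3r, differed by 0.0058 ± 0.19, and at means of 4.33 in normal and 4.34 in tumor it weighs most in that share. Of the 12 neutrophil differences 7 were positive and 5 negative, with a median of 0.59, and 5 had an unadjusted p under 0.05. S100a8 was well above background on 0 of 6 normal and 5 of 6 tumor arrays. It was at least 2.57-fold higher in tumor, with groups that overlapped (limma adjusted p = 0.13). Mmp9 went the other way, at -2.37 ± 0.61 (0.12).

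Of 11 mast cell and basophil markers only 3 were tested, with 0 past the limma threshold and 0 at an unadjusted p under 0.05. The defining Cpa3, Fcer1a, Gata2, Ms4a2, Prss34 and Tpsab1 were not well above background on any of the 12 arrays. Of 12 dendritic cell markers 9 were tested and 0 passed. At an unadjusted p under 0.05 were 3 of the 9, against 2121 of all 16403 genes. The dendritic share was 0.0554% to 0.0827% in normal and 0.0485% to 0.102% in tumor. The part of monocytes, neutrophils or dendritic cells in the difference of Cd300lf was not tested.

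Among the marker lists read here, the largest median difference was that of acinar cells, which make digestive enzymes, at -6.42. All 20 were tested and 16 were past the threshold, all lower in tumor. Their share of the signal of all genes tested was 0.578% to 3.55% in normal and 0.00910% to 0.256% in tumor, without overlap. Its part in the lower values of Cd300lh and Gm11710 was not tested.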

How the data were processed

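Total RNA of sorted macrophages was amplified to cDNA, labelled with Cy5 and hybridized, per the labels' protocols, so folds are of amplified signal. Spots were read with Agilent Feature Extraction 11.5.1.1, per the file headers. The intensity values that the authors deposited (processed signal) were background-subtracted by that software. A table of log2 values deposited by the authors had column medians of 7.08. It matched quantile-normalized log2 processed signals (lowest r 0.9999) and served as an alternative.

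Spots with outlier flags (0.401% of 43020 non-control spots per array) were left out, and 0 were saturated. Spots of a probe were averaged, and log2 signals were set relative to each array's 75th percentile. A probe was kept where 3 or more of the 6 arrays of either group flagged it well above background (22448 of 39429). A gene is its brightest kept probe, and names came from the files and a RefSeq gene table (GRCm38.p6). On an array 39.3% to 58.8% of probes were above background. The number of arrays limits the precision. The comparison of 5 against 5 samples used limma (version 3.58.1, R version 4.3.3), with lmFit, eBayes and two-sided p-values. These were adjusted by Benjamini-Hochberg over 16403 genes, and the threshold was 0.05. The median SE was 0.35. The script was tested on simulated data.

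For a gene that no array of a group measured above background, the fold is a bound, written "at least". Its denominator takes, per array of the dim group, the larger of the probe's own signal and the lowest signal that counted as above background. Probe positions (mm9) come from the array annotation, without exons or UTRs. Each of the 3 slides held 2 arrays of either group.

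The members, gene lists and tests were chosen with earlier results of these data known. The text names all CD300 genes, of each list around them the 3 genes with the smallest p and every gene past the threshold, the 3 genes most like each member, neighbours of the cluster and the 2 brightest genes of marker lists. Other list genes are named for their known role and were chosen after their values were seen. Alternatives covered background correction, scaling, the authors' table, the dim filter, probes of a gene, shared names, slides, flags, the variance model and leaving out each sample. Those for Fgr were added after seeing the data. Some list genes that this rule takes are not reported here.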

Additional observations from a re-analysis of the deposited data

How the results depend on the processing

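The fits below reuse the arrays by which the family was chosen, so they describe dependence on processing and are no further evidence. Cd300lf stayed past the threshold in all 10 fits that left out a sample and in 11 of 14 other alternatives. Its differences were 2.90 to 3.50 and 2.47 to 3.54. The count of members past the threshold was 1 in those fits (1 to 1 on leaving out a sample) and 0 within slides 1, 2 and 3. There limma passed 0 of all genes, with 1590, 1566 and 952 at an unadjusted p under 0.05 against 2121 in the fit of all samples. For all genes the count of 139 became 214 with normexp, 460 with 12 arrays as separate samples and 235 with trend and robust eBayes. It ranged from 59 (without normal sample 5) to 197 (without normal sample 6) on leaving out a sample, and was 83 and 88 without normal samples 1 and 4 and 78 and 71 without tumor samples 1 and 2. The cause was not tested.

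Small differences changed sign: Cd300c with normexp (-0.28) and within slide 3 (-0.13), Cd300ld with normexp (0.13). List medians moved for the partner receptors to 1.39 with the mean over probes, for the adaptors to 0.18 within slide 2 and for the phosphatidylserine receptors to -0.67 within slide 3. Within slides, Cd300lb reached 1.35 (slide 2) and Cd300lg -0.73 (slide 1). Without the dim filter the median of all genes moved to -0.26. Fgr was lost without that filter (adjusted p = 0.070).

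No paired analysis was possible because the labels give no replicate numbers shared between groups; replicate numbers here only follow the order of the samples. Signal over background limits Cd300c, Fgr and the other 2 Cd300lf probes, which were not above background on every normal array.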
